A study of Mus musculus with 25 samples.

Results

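RNA sequencing of bulk sorted cells was compared between monocyte-derived macrophages (MDM), which arise from blood monocytes, and microglia, which live in the brain, both sorted from type 1 transplanted tumours of mice. The comparison holds 7 of the 25 labelled samples of the series. They were chosen by their labels alone, as 4 MDM libraries (replicates 1, 2, 3 and 4) and 3 microglia libraries (replicates 1, 2 and 4). The study sorted both cell types from mouse glioblastoma, an aggressive brain tumour, of 2 tumour types that had been transplanted or had arisen spontaneously. Beside the 7 libraries, the fit held 5 libraries of type 2 transplanted tumours (2 MDM and 3 microglia), 5 of type 1 spontaneous tumours (2 MDM and 3 microglia) and 4 of type 2 spontaneous tumours (1 MDM and 3 microglia). The series also lists 4 samples of microglia from normal brain, not analysed here. The labels give tumour type, model and cell type, and no strain, genotype, age, treatment, sort gate or definition of the 2 tumour types. They do not tie libraries to separate mice, so the p-values below reflect only how far these libraries spread, part of which may be technical.

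Microglia settle in the brain before birth and renew there, held in their resting state by transforming growth factor beta and by the transcription factor Sall1, and they carry the purine receptor P2ry12 and the surface protein Tmem119. Monocytes leave the blood through the chemokine receptor Ccr2 and the integrin subunit Itga4 and become macrophages inside the tumour. Both lineages depend on the receptor Csf1r and on the transcription factor PU.1, and both engulf and digest cells through receptors such as Mertk and Trem2 and through lysosomal proteases.

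The 4 MDM libraries held 31189894 to 42925260 reads and 18417 to 21435 detected genes, and the 3 microglia libraries 31751042 to 50365607 reads and 17214 to 18581 detected genes. The share of reads in the 10 most abundant genes was 6.81% to 8.41% in MDM and 15.7% to 20.9% in microglia. Across genes, replicates correlated at 0.942 to 0.962 (Pearson's r) among MDM and at 0.918 to 0.936 among microglia. Levels below are normalised read counts, that is reads divided by a size factor per library. Differences are log2 fold changes of MDM over microglia on the scale of log2(normalised count + 1), each with its standard error, and adjusted p-values are from limma with Benjamini-Hochberg adjustment over 17216 genes. In bulk RNA, fewer cells of a type and less RNA per cell cannot be told apart.

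The 4 lineage markers went with the labels in each of the 7 libraries. Itga4 stood at 6726, 4032, 3954 and 4801 normalised counts in MDM replicates 1 to 4, against 29.4, 216 and 38.8 in microglia replicates 1, 2 and 4. Ccr2 stood at 8488, 9162, 6390 and 12973 in MDM, against 245, 139 and 98.4 in microglia. The lowest MDM library lay above the highest microglia library for both genes, and the fitted differences were 6.22 ± 0.64 for Itga4 (adjusted p = 9.5e-07) and 5.90 ± 0.99 for Ccr2 (adjusted p = 0.00013). Tmem119 stood at 1905, 2174, 995 and 852 in MDM, against 186798, 212630 and 152476 in microglia. P2ry12 stood at 849, 562, 144 and 307 in MDM, against 99514, 81082 and 108272 in microglia. Here every MDM library lay far below every microglia library, by -7.06 ± 0.46 for Tmem119 (adjusted p = 2.4e-08) and -7.97 ± 0.85 for P2ry12 (adjusted p = 1.3e-06). These 4 genes were known in advance to mark the lineages, so their values check the labels.

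**Figure D1:**
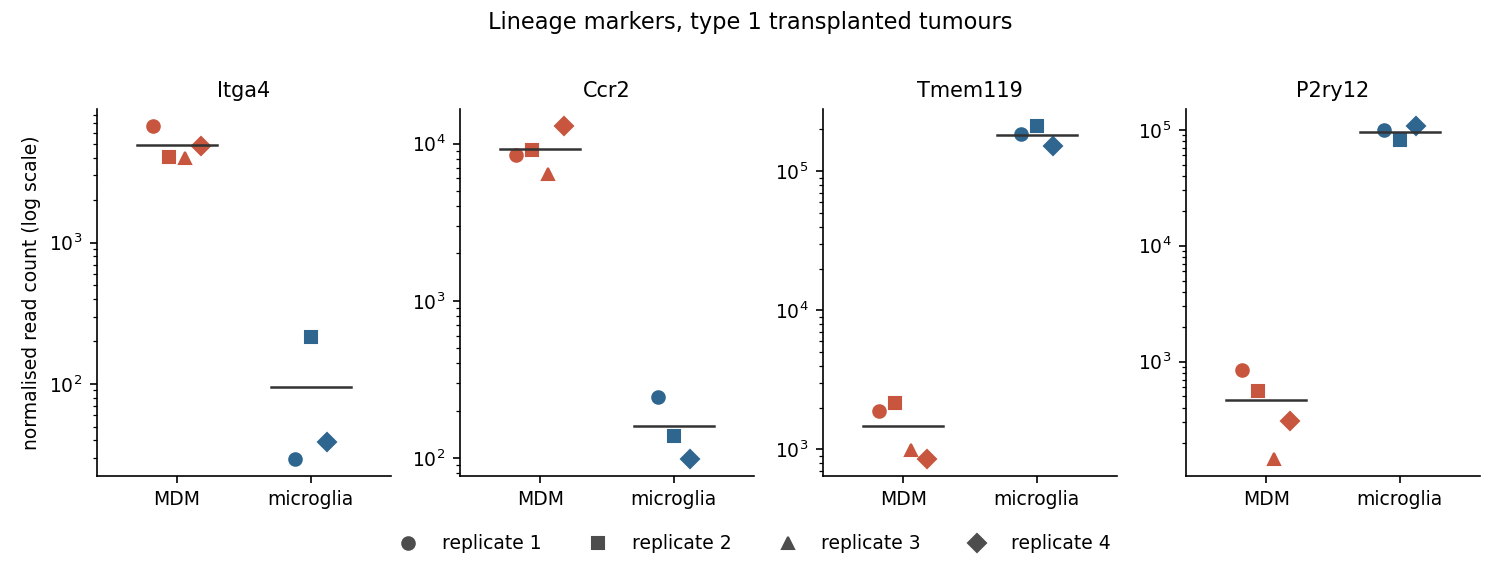
Normalised read counts on a log axis for the lineage markers Itga4, Ccr2, Tmem119 and P2ry12 in the 4 MDM libraries (left, red) and the 3 microglia libraries (right, blue) of type 1 transplanted tumours, with symbols for replicate numbers and lines for group means. The groups do not overlap for any of the 4 genes: Itga4 is 3954 or more in MDM and 216 or less in microglia, and P2ry12 is 849 or less in MDM and 81082 or more in microglia.

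Of 17216 genes tested, 5867 (34.1%) passed an adjusted p under 0.05, of which 3133 (18.2% of genes tested) were higher in MDM and 2734 (15.9%) lower. Counts of list members below are to be read beside these shares of all genes. Of the called genes, 3663 differed at least 4-fold, 2095 higher and 1568 lower. All MDM libraries lay above all microglia libraries for 4326 genes and below them for 3550, together 45.7% of the genes tested. The median difference of all genes was 0.15. With libraries rescaled to an equal total, that median moved to 0.70 and 5623 genes were higher and 1855 lower, so that 75.2% of calls were higher in MDM, against 53.4% in the analysis given here. Rescaling multiplies all genes of a library by the same factor, so list medians move with the median of all genes by construction. Such a move therefore says nothing about a list relative to all genes. Counts of calls also depend on how many genes lie near the threshold. Microglia replicates 1 and 2 held more T and NK cell RNA than replicate 4, as given below. Without both, which leaves 1 microglia library whose spread is taken from the other groups, 3187 genes were called, 1650 higher and 1537 lower.

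Genes of homeostatic microglia, the set that marks the resting resident cell, were lower in MDM without exception: 27 of 27 tested members fell, with a median of -6.19 beside 0.15 for all genes, against a background of 15.9% of genes called lower. The list was read with earlier results of these data known and holds Tmem119 and P2ry12 themselves. P2ry13, an ADP receptor next to P2ry12 on the genome and alike in function, stood at 741, 612, 516 and 778 normalised counts in MDM, against 48229, 45999 and 48803 in microglia (-6.19 ± 0.49, adjusted p = 7.1e-08). Each MDM library held a small fraction of the lowest microglia library. Cx3cr1, the fractalkine receptor, stood at 2851, 1500, 2283 and 3729 in MDM, against 41743, 38634 and 55062 in microglia (-4.18 ± 0.33, adjusted p = 6.4e-08). Sall1, the transcription factor of microglial identity, averaged 52.3 ± 33.6 in MDM and 8926 ± 2135 in microglia (SD, n = 4 and 3; -7.85 ± 0.75, adjusted p = 4.2e-07). The fructose transporter gene Slc2a5 averaged 53.0 ± 63.3 in MDM and 12656 ± 2293 in microglia (-8.81 ± 1.03, adjusted p = 3.4e-06).

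Promoter sequences are shown for members that moved together. RefSeq windows of the GRCm38.p6 build, 250 bases before to 50 after a transcript's start, were matched by symbol for 18 of the 27 homeostatic genes. The letters GAGGAAG, the purine-rich core that PU.1 prefers, were searched on both strands (CTTCCTC on the other) and were found in 5 of 26 windows of these genes (19.2%), beside 13.6% of all 32851 windows. Capitals mark the match. The 3 windows with a match whose genes had the smallest p are printed 5′ to 3′ on the gene's own strand. P2ry13 is chr3:59210833-59211132 on the minus strand with the match 48 bases before the start, Fcrls, an Fc-receptor-like gene of microglia, is chr3:87263475-87263774 on the minus strand with the match 144 bases before it, and Ltc4s, which makes leukotriene C4, is chr11:50238483-50238782 on the minus strand with the match 15 bases after it.
P2ry13: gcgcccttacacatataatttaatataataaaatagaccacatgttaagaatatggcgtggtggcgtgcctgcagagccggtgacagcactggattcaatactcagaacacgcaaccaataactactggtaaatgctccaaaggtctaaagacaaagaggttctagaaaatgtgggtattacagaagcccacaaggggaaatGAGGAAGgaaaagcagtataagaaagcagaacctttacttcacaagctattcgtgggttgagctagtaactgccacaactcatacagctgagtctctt
Fcrls: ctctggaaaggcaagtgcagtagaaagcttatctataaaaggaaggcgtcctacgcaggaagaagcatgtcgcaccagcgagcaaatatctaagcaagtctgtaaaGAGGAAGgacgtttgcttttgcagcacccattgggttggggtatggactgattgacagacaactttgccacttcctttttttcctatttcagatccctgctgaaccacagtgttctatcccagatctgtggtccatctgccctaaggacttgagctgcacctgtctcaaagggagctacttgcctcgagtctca
Ltc4s: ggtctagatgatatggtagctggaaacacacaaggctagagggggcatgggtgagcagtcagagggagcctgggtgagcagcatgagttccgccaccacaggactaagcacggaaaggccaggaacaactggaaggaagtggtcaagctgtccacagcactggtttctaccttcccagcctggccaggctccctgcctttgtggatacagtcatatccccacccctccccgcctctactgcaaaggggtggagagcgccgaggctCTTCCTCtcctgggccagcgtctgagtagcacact
A match is a description of the letters and not evidence of binding.

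Of 32 tested genes of monocyte-derived macrophages, 24 rose, 0 fell and 8 were not called, with a median of 5.34, against a background of 18.2% of genes called higher. Crip1, a LIM-domain gene, stood at 10017, 6560, 7863 and 6748 normalised counts in MDM, against 269, 185 and 178 in microglia (5.21 ± 0.41, adjusted p = 5.9e-08). Lsp1, a leukocyte actin-binding gene, averaged 39369 ± 5702 in MDM and 1772 ± 640 in microglia (4.54 ± 0.34, adjusted p = 4.6e-08). Cytip, which regulates leukocyte adhesion, averaged 14447 ± 3047 in MDM and 527 ± 123 in microglia (4.78 ± 0.48, adjusted p = 7.9e-07). The groups did not overlap for any of these 3 genes. Among 16 genes of classical and nonclassical monocytes 13 rose and 1 fell (median 6.04). Spn, which encodes CD43 on patrolling monocytes and on lymphocytes, averaged 4630 ± 1178 in MDM and 71.2 ± 50.8 in microglia (6.19 ± 0.94, adjusted p = 5.3e-05). Nr4a1, the nuclear receptor that nonclassical monocytes need, stood at 8107, 8071, 18728 and 26942 in MDM, against 149, 683 and 242 in microglia (5.53 ± 0.71, adjusted p = 8.8e-06), so that MDM replicates 3 and 4 were the high ones. The one member that fell was the integrin gene Itgax, which encodes CD11c (4572 ± 1218 in MDM and 18014 ± 4763 in microglia, -1.98 ± 0.48, adjusted p = 0.0031).

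Genes that both macrophage lineages use were lower in MDM as well. Of 20 pan-macrophage genes 17 fell and 1 rose, with a median of -2.84. Csf1r, the growth factor receptor of all macrophages, stood at 23150, 9621, 27801 and 33668 normalised counts in MDM, against 158753, 211614 and 311129 in microglia (-3.35 ± 0.44, adjusted p = 1e-05). Adgre1, which encodes F4/80, stood at 3584, 2166, 2434 and 4944 in MDM, against 29822, 35293 and 30874 in microglia (-3.36 ± 0.34, adjusted p = 7.6e-07). MDM replicate 2 was the lowest MDM library for both genes, and no MDM library reached a microglia library. Trem2, the lipid-sensing receptor of phagocytes, averaged 908 ± 536 in MDM and 56542 ± 10990 in microglia (-6.11 ± 0.51, adjusted p = 1.1e-07). Mertk, which binds dying cells, averaged 233 ± 79.7 in MDM and 13392 ± 6271 in microglia (-5.81 ± 0.48, adjusted p = 1e-07). Itgam, which encodes CD11b, averaged 5294 ± 2118 in MDM and 35089 ± 16948 in microglia (-2.71 ± 0.46, adjusted p = 0.00016). The member that rose was Ptprc, the CD45 gene of all white blood cells, at 28290, 30842, 23651 and 30359 in MDM, against 6962, 9648 and 11954 in microglia (1.6 ± 0.28, adjusted p = 0.00019). Lyz2, the lysozyme gene of myeloid cells, was not called: it stood at 133453, 45372, 99547 and 209799 in MDM, against 146955, 136855 and 87501 in microglia, the groups overlapped, and its difference of -0.19 ± 0.48 (adjusted p = 0.80) turned to 0.38 when libraries were rescaled to the same total and to 1.30 with quantile normalization.

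Transcripts of lymphocytes stood high in the MDM libraries beside these falls. All 17 T cell genes tested, all 18 NK cell and cytotoxic granule genes and all 11 B and plasma cell genes rose, with medians of 6.96, 7.24 and 6.92. Summed over the 17 T cell genes, normalised counts were 157202, 163056, 183346 and 133904 in MDM replicates 1 to 4, against 3649, 4863 and 1055 in microglia replicates 1, 2 and 4, and 3706 to 24577 in the 5 MDM libraries of the other tumour classes. The NK list summed to 184874 to 240030 in MDM, against 3269, 4815 and 360 in microglia, and to 11646 to 357022 in the other MDM libraries. The B and plasma cell list summed to 239227, 229496, 168860 and 63017 in MDM, against 1777, 3077 and 2388 in microglia, with MDM replicate 4 the lowest, and to 1825 to 1651570 in the other MDM libraries. Microglia replicate 4 thus held less T and NK cell RNA than microglia replicates 1 and 2. The pan-macrophage list summed to 387716, 250765, 358328 and 534031 in MDM, against 1651870, 1877677 and 1525527 in microglia, and to 643192 to 1496994 in the other MDM libraries. The lymphocyte lists thus stood higher in the MDM libraries and the pan-macrophage list lower. The part of lymphocyte RNA in the differences of macrophage genes was not tested.

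**Figure D2:**
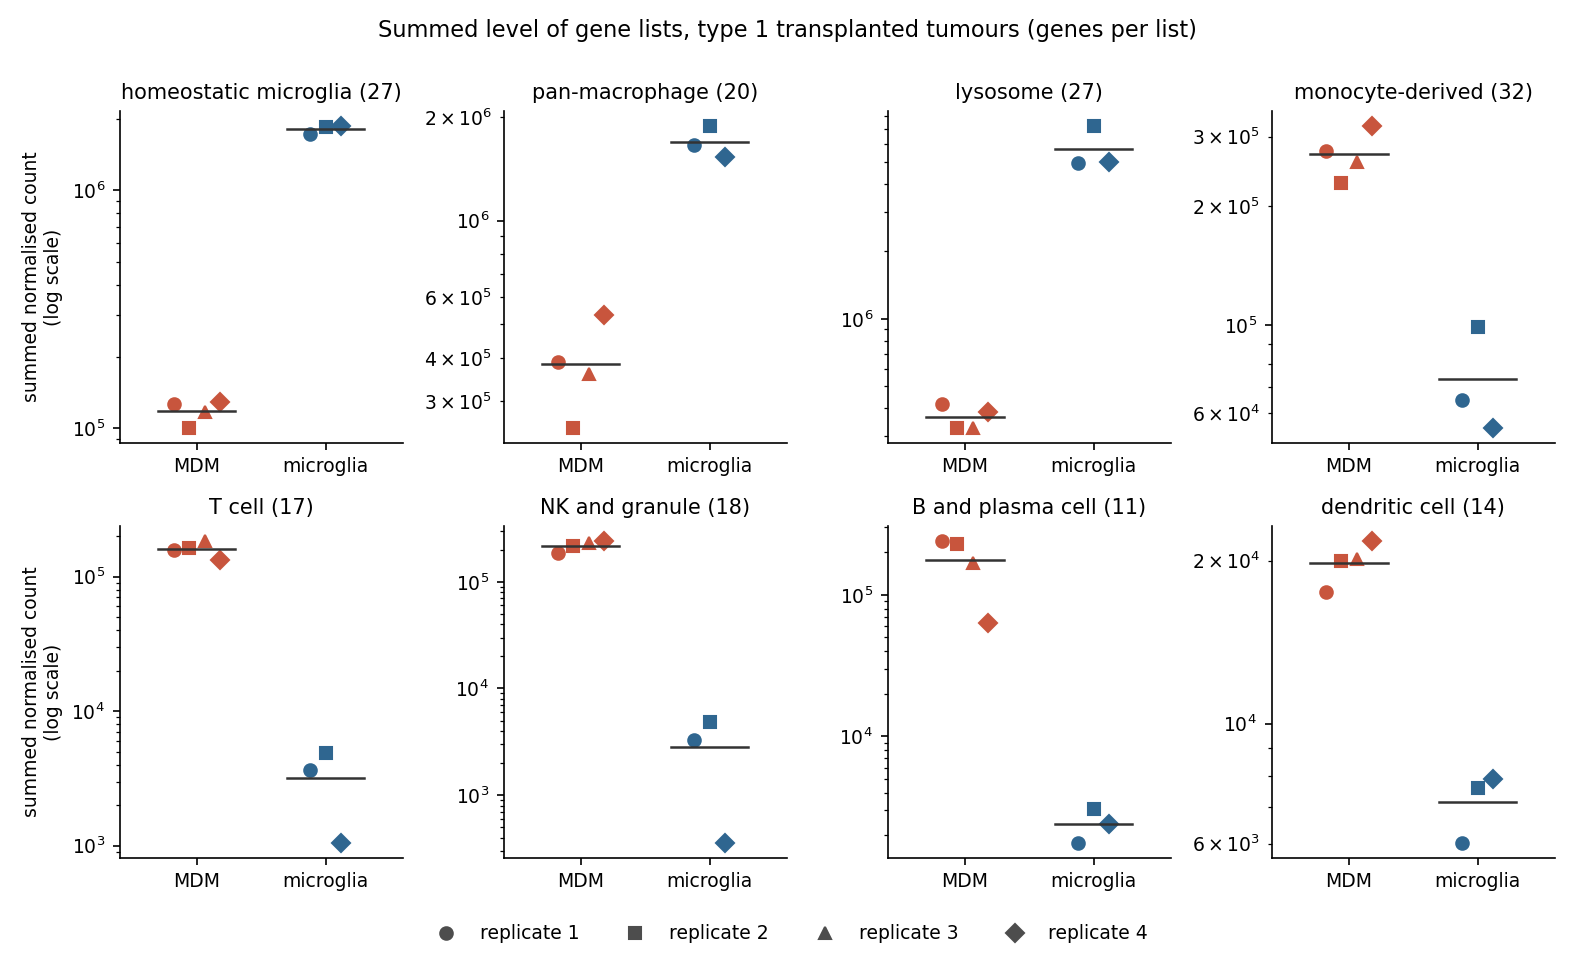
Normalised counts summed over 8 gene lists (number of genes tested in brackets) on log axes, in the 4 MDM libraries (left, red) and the 3 microglia libraries (right, blue) of type 1 transplanted tumours, with symbols for replicate numbers and lines for group means. The homeostatic, pan-macrophage and lysosome sums are lower in each MDM library than in any microglia library, the other sums are higher, and in the T cell and NK panels microglia replicate 4 lies below microglia replicates 1 and 2.

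The defining T cell gene Cd3d, part of the receptor complex, stood at 11088, 7782, 9309 and 5996 normalised counts in MDM, against 89.2, 264 and 4.47 in microglia (7.36 ± 1.07, adjusted p = 3.3e-05). Cd3e stood at 11984, 16689, 27570 and 12546 in MDM, against 312, 658 and 5.96 in microglia (7.17 ± 1.21, adjusted p = 0.00014). The T cell adaptor Lat averaged 7955 ± 1442 in MDM and 138 ± 100 in microglia (6.33 ± 0.81, adjusted p = 8.6e-06). All MDM libraries lay above all microglia libraries for these genes, with microglia replicate 4 the lowest. Ncr1, the natural cytotoxicity receptor that marks NK cells, stood at 6757, 13127, 10522 and 15223 in MDM, against 100, 87.5 and 0 in microglia (9.04 ± 1.27, adjusted p = 2.3e-05). Klrb1c, which encodes NK1.1, averaged 10904 ± 2071 in MDM and 234 ± 87.7 in microglia (5.59 ± 0.69, adjusted p = 5.7e-06). Eomes, a transcription factor of NK and memory T cells, averaged 3920 ± 954 in MDM and 12.5 ± 20.8 in microglia (9.81 ± 1.10, adjusted p = 2.2e-06). The B cell gene Ms4a1, which encodes CD20, averaged 3466 ± 1437 in MDM and 12.5 ± 11.6 in microglia (8.82 ± 0.96, adjusted p = 1.7e-06). Without microglia replicates 1 and 2, all 17 T cell and all 18 NK genes were still called higher, and 10 of 11 B cell genes were.

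Promoter windows were found for 15 of the 18 NK and granule genes. TGTGGT, the core bound by the RUNX factors, of which Runx3 works in NK and T cells, was searched on both strands (ACCACA on the other) and was found in 11 of 19 windows of these genes (57.9%), beside 16.8% of all windows. Runx3 itself averaged 4495 ± 1322 normalised counts in MDM and 118 ± 80.1 in microglia (5.42 ± 1.02, adjusted p = 0.0004). The 3 windows with a match whose genes had the smallest p are printed on the gene's own strand with matches in capitals. Klrb1c is chr6:128788592-128788891 on the minus strand with its match 89 bases before the start, Ncr1 is chr7:4337465-4337764 on the plus strand with 2 matches, the first 176 bases before the start, and Gzma, a granule protease gene, is chr13:113100932-113101231 on the minus strand with its match 50 bases before the start.
Klrb1c: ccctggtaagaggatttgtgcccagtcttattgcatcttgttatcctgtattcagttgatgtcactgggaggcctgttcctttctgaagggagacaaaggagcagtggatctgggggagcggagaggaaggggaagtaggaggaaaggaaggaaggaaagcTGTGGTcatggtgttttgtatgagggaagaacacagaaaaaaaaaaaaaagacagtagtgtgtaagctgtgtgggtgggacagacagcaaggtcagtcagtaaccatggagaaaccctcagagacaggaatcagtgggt
Ncr1: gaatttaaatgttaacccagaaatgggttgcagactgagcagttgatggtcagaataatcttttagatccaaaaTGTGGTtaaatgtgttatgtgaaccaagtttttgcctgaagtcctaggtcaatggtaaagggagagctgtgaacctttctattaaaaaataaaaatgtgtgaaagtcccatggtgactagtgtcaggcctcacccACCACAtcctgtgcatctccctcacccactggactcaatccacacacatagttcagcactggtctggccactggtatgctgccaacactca
Gzma: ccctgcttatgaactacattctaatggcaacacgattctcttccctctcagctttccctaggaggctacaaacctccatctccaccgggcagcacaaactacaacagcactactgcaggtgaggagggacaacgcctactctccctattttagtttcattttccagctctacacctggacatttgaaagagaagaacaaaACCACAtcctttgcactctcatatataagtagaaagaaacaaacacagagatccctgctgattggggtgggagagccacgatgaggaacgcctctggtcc
No motif was tested against the differences in expression.

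Dendritic cells, which carry antigen to lymph nodes, had 12 of 14 genes higher and 2 lower in MDM (median 6.21). Cd209a, a lectin of monocyte-derived dendritic cells, stood at 2154, 2445, 2330 and 5188 normalised counts in MDM, against 0, 10.2 and 0 in microglia (10.30 ± 1.12, adjusted p = 1.7e-06). Flt3, the growth factor receptor of dendritic cells and their precursors, stood at 794, 1614, 1617 and 1865 in MDM, against 17.4, 0 and 11.9 in microglia (7.82 ± 0.86, adjusted p = 1.8e-06). Clec10a, a lectin of dendritic cells and macrophages, averaged 1034 ± 323 in MDM and had no reads in the 3 microglia libraries, which makes it at least 314-fold higher against 3 reads per library (adjusted p = 2.8e-06). Clec9a, a receptor for dead cells on cross-presenting dendritic cells, was at least 81.2-fold higher by the same floor (adjusted p = 2.1e-06). MDM replicate 4 held the most Cd209a, and no microglia library came near any MDM library for these 4 genes. The 2 members that fell were Fscn1, an actin-bundling gene (-3.67 ± 0.54, adjusted p = 3.4e-05), and Batf3, a transcription factor of cross-presenting cells (387 ± 85.9 in MDM and 769 ± 97.7 in microglia, -1.0 ± 0.36, adjusted p = 0.038), and this call was lost in 9 of 18 alternatives, without microglia replicates 1 and 2 among them.

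The largest changes were ranked among called genes, leaving out genes of low level, predicted genes and T or B cell receptor segments. The 12 largest rises so ranked included Cd209a and Clec10a of the dendritic cell list. Rasgrp1, which couples the T cell receptor to Ras, stood at 2526, 2211, 2926 and 2348 normalised counts in MDM and had no reads in microglia, at least 760-fold higher (adjusted p = 2.1e-08). Kmo, an enzyme of tryptophan breakdown, stood at 1133, 1899, 2034 and 2474 in MDM and had no reads in microglia, at least 573-fold higher (adjusted p = 1.4e-06). Cdh1, which encodes E-cadherin, was at least 328-fold higher (adjusted p = 4.7e-05). The keratin gene Krt80 stood at 1956, 1346, 4421 and 7572 in MDM, against 3.26, 0 and 0 in microglia (10.88 ± 1.22, adjusted p = 2.3e-06). Emid1 (10.26 ± 0.80), Baiap3 (10.04 ± 1.44), the kinase gene Dapk2 (9.99 ± 0.95), the thromboxane receptor gene Tbxa2r (9.86 ± 0.71) and Tppp3 (9.82 ± 1.48) completed the set together with Retnlg. Retnlg, a resistin-like gene of neutrophils and monocytes, stood at 5218, 316, 832 and 1010 in MDM and had no reads in microglia, at least 560-fold higher (adjusted p = 2.1e-05), with MDM replicate 1 far above the other 3.

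Among the largest falls in the same ranking, Mymk, a membrane protein known from muscle cell fusion, stood at 8.80, 0, 0 and 0.726 normalised counts in MDM, against 1119, 1529 and 1158 in microglia (-9.28 ± 0.84, adjusted p = 2.6e-07). Lox, which cross-links collagen, stood at 3.20, 27.9, 0 and 0 in MDM, against 1607, 2254 and 2378 in microglia (-9.27 ± 1.10, adjusted p = 4.2e-06). Tmem100 averaged 13.3 ± 6.50 in MDM and 3987 ± 447 in microglia (-8.24 ± 0.61, adjusted p = 4.6e-08). No MDM library held more than 27.9 normalised counts of any of these 3 genes. Chst8, a sulfotransferase gene, had no reads in MDM and 346, 410 and 558 in microglia, at least 192-fold lower against 3 reads per library (adjusted p = 7e-05). Naalad2 (-8.76 ± 1.36), the melanophilin gene Mlph (-8.44 ± 0.86), Fkbp14 (-8.43 ± 1.22), Eya4 (-8.33 ± 0.95), Olfm4 (-8.08 ± 1.11), Olfml2b (-8.06 ± 0.88) and Tspan18 (-8.05 ± 1.06) were the others beside Slc2a5.

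Lysosome and phagocytosis genes fell for 24 of 27 members and rose for 0 (median -3.03). Summed, they stood at 417004, 327542, 327580 and 383445 normalised counts in MDM, against 4960069, 7202069 and 4971124 in microglia. Ctsl, a cysteine protease of the lysosome, stood at 2299, 1999, 2671 and 2429 in MDM, against 66800, 118297 and 75450 in microglia (-5.17 ± 0.40, adjusted p = 5.5e-08). Ctss, the protease that trims the invariant chain for antigen loading, averaged 38996 ± 7913 in MDM and 594989 ± 115786 in microglia (-3.93 ± 0.40, adjusted p = 7.4e-07). Neither protease overlapped between the groups. Complement fell for 13 of 17 genes and rose for 2 (median -4.42). C1qa, part of the first component, stood at 16047, 9411, 5987 and 3278 in MDM, against 403478, 490589 and 277852 in microglia (-5.69 ± 0.52, adjusted p = 2.7e-07). C4b, whose reads a near-identical copy can share, averaged 145 ± 38.5 in MDM and 7455 ± 2191 in microglia (-5.67 ± 0.54, adjusted p = 4.2e-07), and the receptor C3ar1 averaged 967 ± 311 and 20716 ± 2631 (-4.47 ± 0.33, adjusted p = 4.6e-08). The 2 members that rose were Cfp, which encodes properdin and stabilises the alternative pathway (1981 ± 381 in MDM and 68.3 ± 29.9 in microglia, 4.91 ± 0.63, adjusted p = 9.9e-06), and Cd55, which dissolves complement convertases (7.32 ± 1.11, adjusted p = 5.2e-05).

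The disease-associated microglia list, genes that microglia raise around plaques and damage, fell for 22 of 27 members and rose for 0 (median -2.80). Serpine2, a protease inhibitor, averaged 650 ± 354 normalised counts in MDM and 81495 ± 17666 in microglia (-7.14 ± 0.59, adjusted p = 1.1e-07). The tetraspanin Cd9 averaged 11408 ± 2292 in MDM and 172663 ± 35711 in microglia (-3.92 ± 0.32, adjusted p = 9.3e-08), and the metalloprotease inhibitor Timp2 averaged 4556 ± 845 and 119178 ± 29190 (-4.70 ± 0.41, adjusted p = 1.9e-07). Apoe, the lipid carrier, stood at 261491, 142601, 125049 and 107142 in MDM, against 827321, 1399759 and 670367 in microglia (-2.62 ± 0.64, adjusted p = 0.0035). MDM replicate 1 held the most Apoe of the 4 and still lay below each microglia library. Spp1, which encodes osteopontin, stood at 1316, 1348, 588 and 842 in MDM, against 4345, 7915 and 4930 in microglia (-2.51 ± 0.74, adjusted p = 0.013). The calls of Apoe and Spp1 ended in 2 and 3 of 18 alternatives, without microglia replicates 1 and 2 among them in both cases.

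MHC class II, which presents antigen to helper T cells, had 3 of 11 genes higher, 2 lower and 6 not called, beside 18.2% higher and 15.9% lower of all genes. Its median of -0.34 turned to 0.23 with libraries rescaled to the same total, to 1.17 with quantile normalization and to 0.25 without microglia replicates 1 and 2. H2-Ab1, the beta chain of I-A, stood at 137268, 179188, 143676 and 141527 normalised counts in MDM, against 210347, 214039 and 125541 in microglia. MDM values lay within the microglia range, and the difference of -0.25 ± 0.62 (adjusted p = 0.80) changed sign under the same 3 alternatives, to 0.32, 1.43 and 0.25. Ciita, which switches class II genes on, stood at 2026, 3103, 2090 and 2314 in MDM, against 836, 414 and 980 in microglia (1.75 ± 0.66, adjusted p = 0.049), without overlap, and the call ended in 10 of 18 alternatives. H2-DMb2 (2.03 ± 0.75, adjusted p = 0.044) and H2-Eb2 (3.45 ± 1.05, adjusted p = 0.016) were higher, with calls ended in 9 and 2 alternatives. The peptide-exchange genes H2-DMa and H2-DMb1 fell, H2-DMa to 12679 ± 1210 in MDM, against 33042 ± 6462 in microglia (-1.37 ± 0.32, adjusted p = 0.0024), and H2-DMb1 by 1.14 ± 0.31 (adjusted p = 0.0079). Both falls were not called without microglia replicates 1 and 2. MHC class I presentation, which shows antigen to cytotoxic T cells, had 0 of 15 genes higher and 3 lower with a median of 0.00. After rescaling to the same total 5 were higher, about the share of all genes called higher then, and 2 lower. Its light chain B2m averaged 121320 ± 13271 in MDM and 331877 ± 65126 in microglia (-1.44 ± 0.40, adjusted p = 0.0086), a difference that became 0.26 with quantile normalization and was not called without microglia replicates 1 and 2. Class II calls without microglia replicates 1 and 2 were 1 higher and 0 lower.

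Of 24 transcription factors of the macrophage lineage 10 fell and 8 rose, with a median of -0.38. It was 0.19 after rescaling to the same total, a move about as large as that of the median of all genes. Beside Sall1, Mitf, of the lysosome-building family, averaged 73.2 ± 35.2 normalised counts in MDM and 1113 ± 317 in microglia (-3.97 ± 0.37, adjusted p = 3.6e-07). Klf4, a factor of inflammatory monocytes, stood at 453, 396, 905 and 1774 in MDM, against 22.8, 11.7 and 39.5 in microglia (4.99 ± 0.58, adjusted p = 3e-06). Irf4, used by dendritic cells and activated lymphocytes, stood at 1654, 1105, 1126 and 702 in MDM, against 1.09, 1.46 and 44.0 in microglia (7.48 ± 1.41, adjusted p = 0.0004). Id2, which dendritic and NK cells need, averaged 28700 ± 5087 in MDM and 4795 ± 1065 in microglia (2.59 ± 0.37, adjusted p = 2.9e-05), and Id3 rose by 4.63 ± 0.62 (adjusted p = 1.4e-05). Klf2, which keeps T cells and monocytes quiescent, stood at 5065, 17663, 21757 and 36930 in MDM, against 627, 1684 and 2210 in microglia (3.62 ± 0.73, adjusted p = 0.0007), with MDM replicate 1 the lowest of its group. Of these rises, those of Irf4 and Klf2 were not called without microglia replicates 1 and 2.

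Chemokine receptors rose for 11 of 18 genes and fell for 3, beside 18.2% and 15.9% of all genes (median 4.47). Cxcr5, which guides B cells and follicular helper T cells, stood at 1624, 2523, 1810 and 1261 normalised counts in MDM, against 0, 7.29 and 2.98 in microglia (9.09 ± 1.2, adjusted p = 1.2e-05). Ccr4, a receptor of regulatory and Th2 cells, averaged 435 ± 195 in MDM and 2.85 ± 4.03 in microglia (7.28 ± 1.12, adjusted p = 5.7e-05), and Cxcr4, the receptor for Cxcl12, averaged 2097 ± 1059 and 176 ± 72.2 (3.51 ± 0.45, adjusted p = 9.3e-06). Beside Cx3cr1, the scavenging receptor Ackr3 fell by 4.79 ± 0.98 (adjusted p = 0.00083), a call not made without microglia replicates 1 and 2. Chemokines fell for 9 of 20 genes and rose for 3, the latter near the share of all genes (median -1.37). Ccl12, a monocyte attractant of mice, stood at 282, 202, 79.4 and 67.5 in MDM, against 10048, 9362 and 6712 in microglia (-6.01 ± 0.88, adjusted p = 3.5e-05). Cxcl16, the ligand of Cxcr6, averaged 2997 ± 424 in MDM and 15713 ± 5776 in microglia (-2.34 ± 0.30, adjusted p = 8.3e-06). The 3 that rose were Xcl1 (7.36 ± 1.08, adjusted p = 3.5e-05), Ccl22 (5.45 ± 1.29, adjusted p = 0.0028, not called without microglia replicates 1 and 2) and Ccl5. Ccl5 stood at 20847, 16069, 21631 and 23628 in MDM, against 2847, 4609 and 1356 in microglia (2.96 ± 0.79, adjusted p = 0.0069). With the single microglia library that remains without microglia replicates 1 and 2, 8 receptors were higher and 2 lower, and 2 chemokines were higher and 6 lower.

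Integrins, which bind cells to vessels and matrix, rose for 8 of 18 genes and fell for 5 (median 0.94). Itgb7, which pairs with Itga4, stood at 42229, 38906, 40071 and 32253 normalised counts in MDM, against 414, 943 and 185 in microglia (6.51 ± 0.89, adjusted p = 1.7e-05). Itgb5, the partner of the alpha V chain, stood at 1199, 3427, 3336 and 3777 in MDM, against 89218, 129235 and 119326 in microglia (-5.37 ± 0.58, adjusted p = 1.6e-06). These 2 genes went opposite ways, and Itga9 (-4.14 ± 0.60, adjusted p = 3e-05), Itga6 (-2.62 ± 0.43, adjusted p = 0.00011), Itgam and Itgax fell with Itgb5. In the TGF-beta pathway, which keeps microglia in their resting state, 3 of 15 genes rose and 1 fell, with a median of -0.11. It was 0.46 after rescaling to the same total, again a move like that of all genes, and the share that rose was near the 18.2% of all genes. The receptor Tgfbr1 averaged 2502 ± 1075 in MDM and 24895 ± 15769 in microglia (-3.22 ± 0.50, adjusted p = 6.6e-05). Tgfbr3, the co-receptor betaglycan, stood at 384, 182, 432 and 681 in MDM and had no reads in microglia, at least 127-fold higher (adjusted p = 8e-06). Lrrc32, which displays latent TGF-beta on regulatory T cells and platelets, rose by 5.96 ± 1.27 (adjusted p = 0.0012) and Tgfb3 by 5.76 ± 1.32 (adjusted p = 0.0021). Integrin calls without microglia replicates 1 and 2 were 5 higher and 5 lower.

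Purine signalling genes fell for 10 of 15 members and rose for 4 (median -2.12). The adenosine receptor Adora3 averaged 21 ± 12 normalised counts in MDM and 1220 ± 126 in microglia (-5.97 ± 0.52, adjusted p = 1.9e-07), and Adora1 averaged 24.7 ± 12.1 and 1717 ± 391 (-6.19 ± 0.56, adjusted p = 2.4e-07). Entpd1, which encodes CD39 and breaks down ATP, stood at 4352, 3480, 2857 and 2884 in MDM, against 29995, 32038 and 28687 in microglia (-3.18 ± 0.24, adjusted p = 5.5e-08). The 4 that rose were Adora2a, the adenosine receptor that restrains T cells, at 1136, 2226, 2759 and 1899 in MDM, against 0, 35.0 and 0 in microglia (9.17 ± 1.46, adjusted p = 8.1e-05), Adora2b (7.59 ± 1.43, adjusted p = 0.0004), P2ry10 (9.35 ± 1.33, adjusted p = 2.6e-05) and Nt5e, which encodes CD73 and makes adenosine (7.63 ± 1.39, adjusted p = 0.0003). Alternative activation and immunosuppression genes rose for 9 of 23, beside 18.2% of all genes, and fell for 4, near the 15.9% of all genes (median 0.86). Arg1, an arginine-degrading enzyme of alternative activation, was low in both groups, at 53.6, 23.6, 62.6 and 37.8 in MDM, against 0, 0 and 1.49 in microglia (4.98 ± 1.28, adjusted p = 0.0052). Its call ended in 4 of 18 alternatives, without microglia replicates 1 and 2 among them. Pdcd1lg2, which encodes PD-L2, averaged 492 ± 30.2 in MDM and 4.21 ± 6.08 in microglia (7.31 ± 0.99, adjusted p = 1.5e-05). Cd274, which encodes PD-L1, stood at 2407, 1529, 1908 and 2215 in MDM, against 1533, 1355 and 2480 in microglia, with overlapping groups and a difference of 0.20 ± 0.61 (adjusted p = 0.84). The checkpoint genes Vsir (-2.29 ± 0.25, adjusted p = 1.9e-06) and Havcr2 (-2.51 ± 0.33, adjusted p = 1.2e-05) fell. Alternative activation calls without microglia replicates 1 and 2 were 4 higher and 3 lower.

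Inflammatory cytokine and NF-kB genes rose for 7 of 23 members, beside 18.2% of all genes, and fell for 4, near the 15.9% of all genes (median 0.25). Il10, which dampens inflammation, stood at 137, 281, 204 and 219 normalised counts in MDM and had no reads in microglia, at least 63.9-fold higher (adjusted p = 7e-05). Il1a stood at 363, 217, 77.4 and 63.2 in MDM, against 12524, 14359 and 11764 in microglia (-6.50 ± 0.63, adjusted p = 4.7e-07), and the inflammasome sensor Nlrp3 fell by 2.62 ± 0.48 (adjusted p = 0.00032). Of 30 type I interferon response genes 4 rose, a share below the 18.2% of all genes, and 0 fell (median 0.49). After rescaling to the same total 9 were higher, beside 5623 of all 17216 genes. Isg20, an antiviral nuclease, averaged 3622 ± 1083 in MDM and 383 ± 89.2 in microglia (3.22 ± 0.76, adjusted p = 0.0027), and Irf9 averaged 8749 ± 1223 and 4558 ± 761 (0.94 ± 0.22, adjusted p = 0.0023). Immediate-early and dissociation-stress genes rose for 12 of 27 and fell for 3 (median 1.45). Nr4a2 averaged 613 ± 161 in MDM and 11.2 ± 4.10 in microglia (5.68 ± 0.61, adjusted p = 1.4e-06), while Rhob (-4.07 ± 0.45, adjusted p = 1.9e-06), Atf3 (-2.21 ± 0.38, adjusted p = 0.00016) and Jun (-0.79 ± 0.26, adjusted p = 0.022) fell. The fall of Jun was not called in 5 of 18 alternatives. Leaving out microglia replicates 1 and 2 gave 4 higher and 3 lower cytokine genes, 2 higher interferon response genes, and 8 higher and 2 lower immediate-early genes.

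Cholesterol synthesis genes rose for 8 of 22 members and fell for 0 (median 0.73). Srebf2, the regulator of the pathway, stood at 5537, 6419, 7304 and 5933 normalised counts in MDM, against 500, 1001 and 1049 in microglia (2.96 ± 0.46, adjusted p = 6.4e-05). The epoxidase gene Sqle averaged 1122 ± 206 in MDM and 93.4 ± 85.1 in microglia (4.34 ± 0.75, adjusted p = 0.00018), and Fdft1, which makes squalene, averaged 1096 ± 102 and 369 ± 94.2 (1.6 ± 0.31, adjusted p = 0.00047). Genes of cholesterol efflux and lipid storage went the other way, with 12 of 20 lower and 2 higher (median -1.67). The efflux pump Abca1 stood at 1292, 1793, 1723 and 846 in MDM, against 10164, 8453 and 17432 in microglia (-3.08 ± 0.43, adjusted p = 2.2e-05), and Npc1, which exports cholesterol from lysosomes, averaged 877 ± 109 and 3482 ± 330 (-1.99 ± 0.23, adjusted p = 3.4e-06). The 2 that rose were the fatty acid carrier Fabp4 (6.44 ± 1.04, adjusted p = 9e-05) and the phospholipid transfer gene Pltp (3.37 ± 0.46, adjusted p = 1.5e-05). Leaving out the same 2 microglia libraries gave 4 higher synthesis genes, and 7 lower and 3 higher efflux and storage genes.

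Glycolysis and hypoxia genes fell for 8 of 26 and rose for 4, beside 15.9% and 18.2% of all genes, with a median of -0.59 that was 0.04 with quantile normalization. The split turned to 4 lower and 9 higher after rescaling to the same total, beside 1855 and 5623 of all 17216 genes. The 2 hexokinase genes named went opposite ways. Hk2 averaged 341 ± 109 normalised counts in MDM and 2178 ± 489 in microglia (-2.72 ± 0.34, adjusted p = 5.9e-06), whereas Hk1 averaged 4604 ± 969 and 841 ± 285 (2.48 ± 0.69, adjusted p = 0.0092), a call not made without microglia replicates 1 and 2. The platelet form of phosphofructokinase, Pfkp, averaged 10913 ± 1180 in MDM and 364 ± 206 in microglia (5.04 ± 0.74, adjusted p = 3.7e-05). Of 30 respiratory chain genes, 0 were called in limma's test in either direction (median 0.22). After rescaling to the same total 18 were higher, beside 5623 of all 17216 genes. With quantile normalization 2 were higher, beside 2945 of all 17216 genes. Of 32 proliferation genes 5 rose, a share below the 18.2% of all genes called higher, and 0 fell (median 0.82), and the replication gene Mcm6 averaged 5895 ± 634 in MDM and 1156 ± 208 in microglia (2.36 ± 0.46, adjusted p = 0.00052). The proliferation marker Mki67 stood at 386, 403, 275 and 129 in MDM, against 144, 198 and 439 in microglia, and its difference of 0.23 ± 0.97 (adjusted p = 0.88) became -0.11 without microglia replicate 1. Extracellular matrix genes fell for 10 of 22 and rose for 2 (median -1.49). Sparc, a matrix glycoprotein, stood at 1886, 1289, 266 and 519 in MDM, against 170598, 175859 and 165111 in microglia (-7.80 ± 0.71, adjusted p = 2.8e-07). Mmp9, the gelatinase that rose, stood at 2139, 148, 365 and 384 in MDM and had no reads in microglia, at least 231-fold higher (adjusted p = 5.7e-05), with MDM replicate 1 highest. Without microglia replicates 1 and 2, 4 glycolysis genes were lower and 2 higher, 1 proliferation gene was higher, and 6 matrix genes were lower and 2 higher.

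Astrocyte and neural stem cell genes, some of which tumour cells also use, fell for 5 of 16 and rose for 0 (median -1.5), and summed to 692 to 1292 normalised counts in MDM and 6662 to 7855 in microglia. Slc1a3, a glutamate transporter, averaged 66.9 ± 15.1 in MDM and 5604 ± 674 in microglia (-6.39 ± 0.45, adjusted p = 3.7e-08). It made up most of the microglia sum, at 6195, 4870 and 5746, and stood at 4037 to 11285 in the other microglia libraries. Prom1, which encodes CD133, had no reads in MDM, against 119, 77.3 and 61.9 in microglia, at least 37.6-fold lower (adjusted p = 2.3e-05). Sox2, a factor of neural stem cells, stood at 4.80, 0, 3.87 and 29.8 in MDM, against 175, 168 and 67.1 in microglia (-4.54 ± 1.07, adjusted p = 0.0027), a call not made without microglia replicates 1 and 2. Oligodendrocyte and progenitor genes fell for 4 of 14 and rose for 2, beside 15.9% and 18.2% of all genes. The proteoglycan gene Cspg4 of progenitors averaged 2.65 ± 3.77 in MDM and 209 ± 192 in microglia (-6.08 ± 1.02, adjusted p = 0.00014). The 2 that rose were Mbp (1.83 ± 0.25, adjusted p = 1.8e-05) and Cnp (1.74 ± 0.32, adjusted p = 0.00029). Both are myelin genes of oligodendrocytes, of which Mbp also has transcripts in blood cells. Mag, another myelin gene of the list, fell, with 259 ± 56.1 in MDM and 1539 ± 449 in microglia (-2.54 ± 0.32, adjusted p = 7.6e-06). Without those 2 libraries 3 astrocyte and stem cell genes and 2 oligodendrocyte genes were lower.

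Of 10 neutrophil genes 1 rose, Retnlg, and 1 fell, the colony-stimulating factor receptor Csf3r (2167 ± 1263 in MDM and 13605 ± 2932 in microglia, -2.79 ± 0.38, adjusted p = 1.8e-05). The defining neutrophil genes Ly6g and Camp were at or under 0.873 in each MDM library and at or under 2.92 in each microglia library. Basophil, eosinophil and mast cell genes rose for 3 of 9 and fell for 1, and the eosinophil granule gene Prg2 stood at 2804, 1977, 1786 and 129 in MDM, against 0, 45.2 and 0 in microglia (8.21 ± 1.43, adjusted p = 0.00019), with MDM replicate 4 the lowest. Border-associated macrophages, which line vessels and meninges, had 2 of 12 genes higher and 2 lower, near the 18.2% and 15.9% of all genes. Their marker Folr2 averaged 20.9 ± 3.34 in MDM and 316 ± 80.0 in microglia (-3.83 ± 0.93, adjusted p = 0.0033), a call not made without microglia replicates 1 and 2. The 2 border-associated genes that rose were F13a1 (6.85 ± 1.31, adjusted p = 0.00045), highest in MDM replicate 4, and Clec12a (5.33 ± 1.13, adjusted p = 0.0012). The endothelial gene Cldn5 had no reads in any of the 7 libraries. Endothelial and mural genes rose for 2 of 8, Pecam1 (3.43 ± 0.75, adjusted p = 0.0014) and Acta2 (2.69 ± 0.99, adjusted p = 0.043), and neither was called without microglia replicates 1 and 2. Red blood cell genes (0 of 5) had overlapping groups, and of 8 neuron genes 0 rose and 1, Rbfox3, fell (-3.57 ± 1.05, adjusted p = 0.013, not called without microglia replicates 1 and 2). Plasmacytoid dendritic cell genes rose for 4 of 10, among them Klk1 (6.55 ± 0.73, adjusted p = 2.2e-06), Pacsin1 (3.50 ± 0.59, adjusted p = 0.00015) and Runx2 (6.92 ± 1.24, adjusted p = 0.00025). The 3 that fell included Siglech (-4.07 ± 0.74, adjusted p = 0.0003), which microglia also express.

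The difference between MDM and microglia in type 1 transplanted tumours was then set against the mean of the same difference in the other 3 tumour classes, as an interaction in the same fit. It differed for 989 genes (5.74%), 380 more positive (2.21%) and 609 more negative (3.54%). Against type 2 transplanted tumours alone it differed for 129 genes (0.749%), 61 more positive (0.354%) and 68 more negative (0.395%), and against type 1 spontaneous tumours for 777 genes (4.51%), 240 more positive (1.39%) and 537 more negative (3.12%). With libraries rescaled to an equal total, the majority turned to the positive side, with 656 more positive and 276 more negative against the mean of the others, 108 and 31 against type 2 transplanted tumours, and 446 and 233 against type 1 spontaneous tumours. The median interaction of all genes against the mean of the others was then 0.48, beside 0.05 without rescaling. These 3 interactions share the 7 type 1 transplanted libraries. With same-numbered libraries treated as pairs in a replicate block, on 4 residual degrees of freedom, 377, 1 and 158 genes differed in limma's test. Without microglia replicates 1 and 2, 62, 0 and 93 genes differed in these 3 interactions in limma's test, with 2005, 1333 and 2575 at an unadjusted p under 0.05. Leaving out 1 library moved them as well: the first count was 626 without MDM replicate 2, 640 without microglia replicate 1 and 582 without microglia replicate 2, and the count against type 1 spontaneous tumours lay between 470 and 517 without MDM replicate 2 or 3 or any 1 of the 3 microglia libraries.

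Lysosome and phagocytosis genes held 23 of 27 members with a more negative difference than in the other classes and 0 with a more positive one. The median difference of the list was -3.03 in type 1 transplanted tumours, beside -1.24 in type 2 transplanted, -1.11 in type 1 spontaneous and -0.88 in type 2 spontaneous tumours. For Ctsl, MDM averaged 2349 ± 280 normalised counts in type 1 transplanted tumours, and the other MDM libraries had a median of 16050, whereas microglia averaged 86849 ± 27576 and had a median of 102220 elsewhere (interaction -2.43 ± 0.50, adjusted p = 0.0077). Pan-macrophage genes had 12 of 20 more negative and complement genes 12 of 17, beside 3.54% of all genes, and after rescaling to the same total these counts were 9 and 7. Single members were Mertk at -3.48 ± 0.60 (adjusted p = 0.0029) and C3ar1 at -3.55 ± 0.41 (adjusted p = 0.00026). Homeostatic microglia genes had 12 of 27 more negative, with a list median of -6.19 beside -3.66, -2.59 and -3.02 in type 2 transplanted, type 1 spontaneous and type 2 spontaneous tumours. Tmem119 differed by -3.66 ± 0.58 (adjusted p = 0.0017), and P2ry12 by -3.48 ± 1.06 (adjusted p = 0.062), which did not pass the test. Of the MDM markers, Itga4 (0.82 ± 0.81, adjusted p = 0.65) and Ccr2 (0.06 ± 1.24, adjusted p = 0.99) were not called in this interaction. Without microglia replicates 1 and 2, 2 lysosome genes, 1 pan-macrophage gene, 1 complement gene and 0 homeostatic genes were called in the interaction, at list medians of -2.08, -2.05, -2.81 and -2.69 beside -2.09, -2.07, -2.69 and -2.38 with them.

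**Figure D3:**
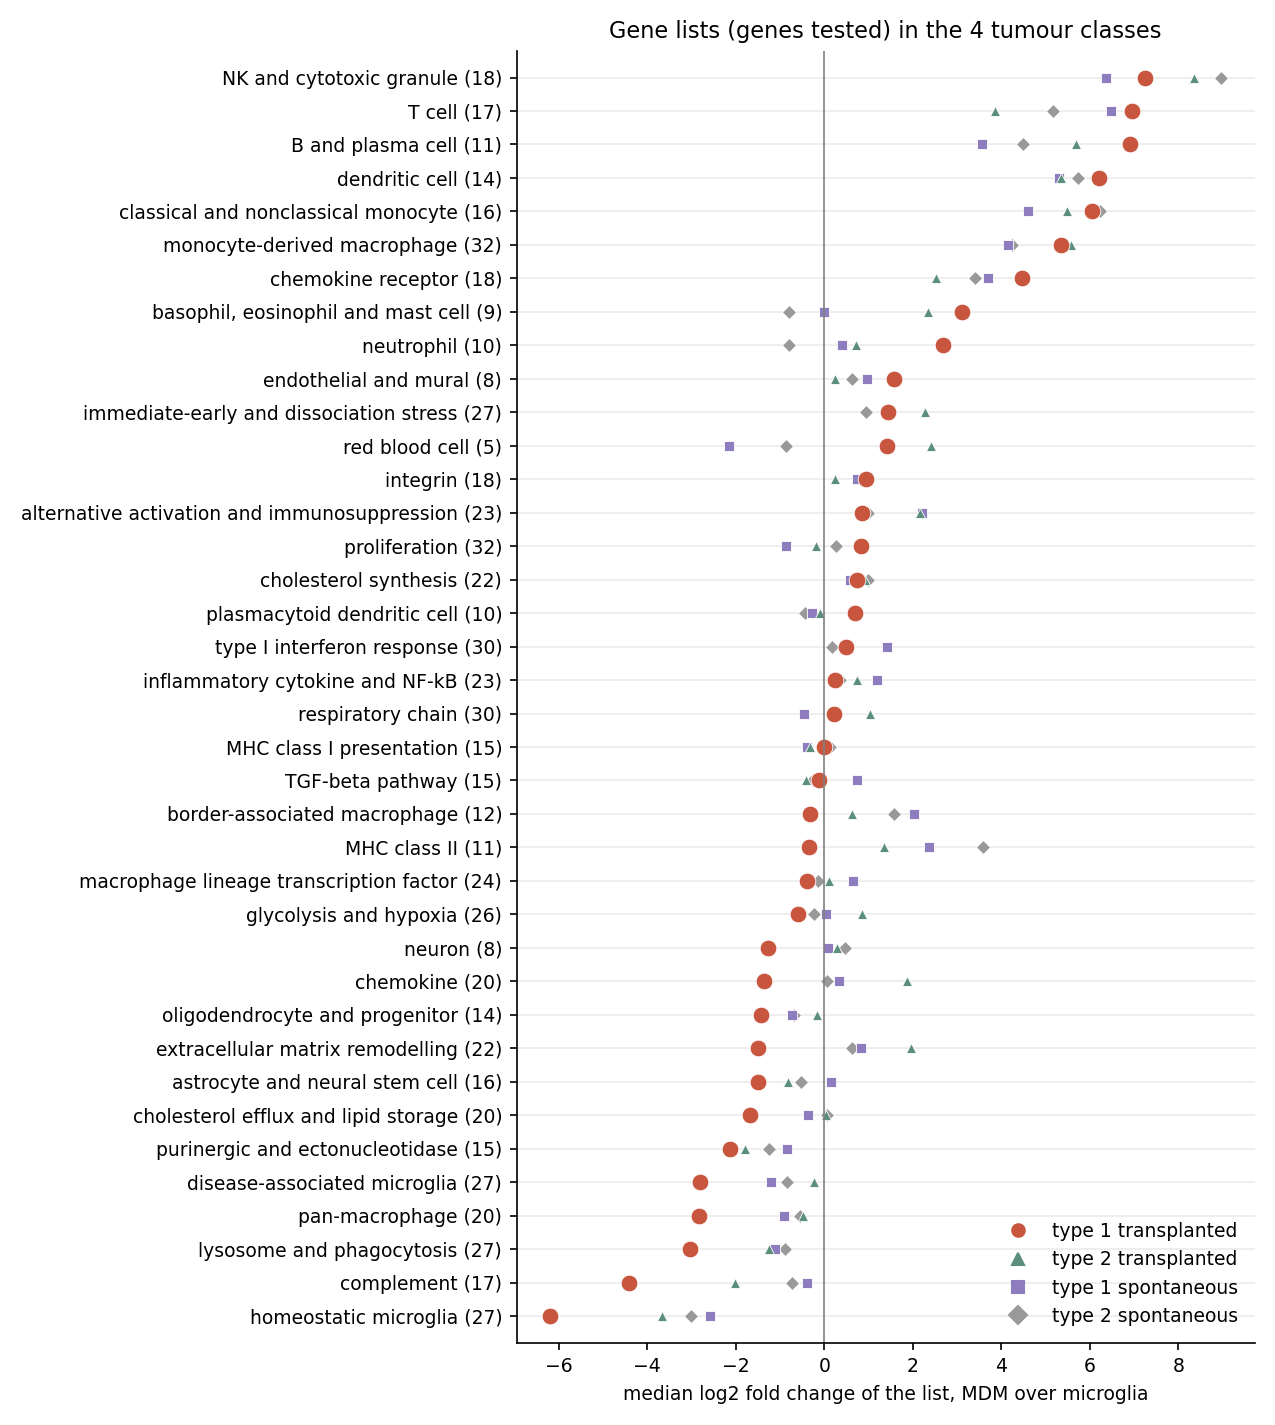
Median log2 fold change of MDM over microglia for 38 gene lists (number of genes tested in brackets) in the 4 tumour classes, with type 1 transplanted tumours as large red circles and the other classes as small symbols. In type 1 transplanted tumours the homeostatic microglia list is lowest at -6.19 and the NK list highest at 7.24, and the lysosome, pan-macrophage and complement medians of -3.03, -2.84 and -4.42 lie to the left of those of the other 3 classes.

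The MHC class II median was below 0 here and above 0 in the other classes, -0.34 beside 1.35, 2.37 and 3.58 in type 2 transplanted, type 1 spontaneous and type 2 spontaneous tumours, although the sign in type 1 transplanted tumours depended on the scaling as given above. The difference was more negative for 7 of 11 members and more positive for 0. For H2-Ab1 the interaction was -3.65 ± 0.78 (adjusted p = 0.0092) and for Ciita -3.40 ± 0.83 (adjusted p = 0.021). H2-DMa and H2-DMb1 differed by -2.31 ± 0.40 (adjusted p = 0.0028) and -2.62 ± 0.39 (adjusted p = 0.0012). The summed list stood at 594081 to 735854 normalised counts in type 1 transplanted MDM and 1209887 to 2891249 in the other MDM libraries, while microglia held 624832 to 1176175 in type 1 transplanted tumours and 44003 to 1848998 elsewhere. The other microglia thus spanned the range of the type 1 transplanted ones, and the other MDM libraries lay above the type 1 transplanted MDM. For H2-Ab1 the other microglia had a median of 25226, beside a mean of 183309 here, and the other MDM 371214, beside 150415. For Ciita these values were 162 beside 743 in microglia and 5539 beside 2383 in MDM. Microglia here thus lay above the median of the others for both genes, and MDM below it. Without microglia replicates 1 and 2, 0 members were called in the interaction and the list's median interaction was -2.18, beside -2.62 with them.

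**Figure D4:**
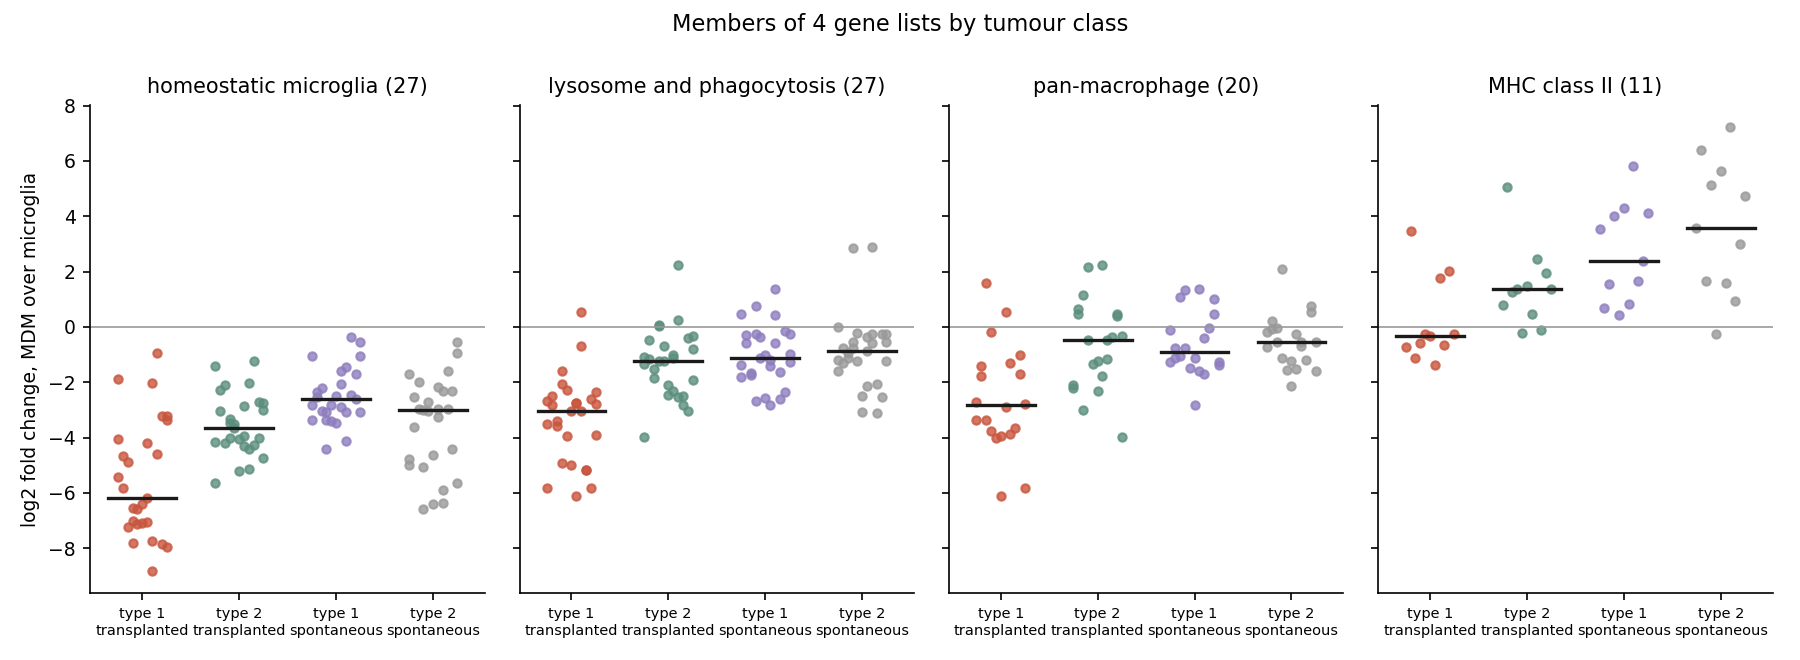
Log2 fold change of MDM over microglia for each member (points) of the homeostatic microglia, lysosome and phagocytosis, pan-macrophage and MHC class II lists in the 4 tumour classes, with lines for medians. In type 1 transplanted tumours the medians are -6.19, -3.03, -2.84 and -0.34, each below the medians of the other 3 classes.

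Lymphocyte genes supplied several of the largest positive interactions. Dntt, the template-free polymerase of B and T cell precursors, stood at 80.0, 62.0, 554 and 571 normalised counts in type 1 transplanted MDM, against 0, 1.46 and 0 in microglia, and had a median of 0 in the other MDM libraries (interaction 7.31 ± 1.00, adjusted p = 0.00079). MDM replicates 3 and 4 held the most, as they did for Klk1 of the plasmacytoid dendritic cell list. Klk1 stood at 55.2, 86.4, 352 and 270 in these MDM libraries (interaction 6.55 ± 0.92, adjusted p = 0.00088). Of that list's 10 genes, 2 had a more positive and 1 a more negative difference, beside 2.21% and 3.54% of all genes. Which cells held Dntt was not tested. Cxcr5 had a median of 94.1 in the other MDM libraries and an interaction of 7.04 ± 1.5 (adjusted p = 0.0092), and Flicr, a noncoding RNA at the Foxp3 gene of regulatory T cells whose reads cannot be separated from Foxp3 without strand, averaged 138 ± 32.3 in type 1 transplanted MDM, against 0.994 ± 1.72 in microglia, with a median of 3.26 in the other MDM libraries (7.19 ± 1.08, adjusted p = 0.0012). Cd5, a brake on T and B cell receptors, and Fcer2a, the low-affinity IgE receptor of B cells, differed by 3.64 ± 0.78 (adjusted p = 0.0092) and 5.60 ± 1.06 (adjusted p = 0.0048). As whole lists, 3 of 17 T cell genes and 2 of 11 B cell genes had a more positive difference and 0 of 18 NK genes did, beside 2.21% of all genes, with 0 more negative in each. Without microglia replicates 1 and 2 the counts were 2 T cell, 0 B cell and 0 NK genes. At the other end, the eosinophil attractant Ccl24 stood at 10.4, 14.8, 0 and 0.726 in type 1 transplanted MDM, against 563, 236 and 292 in microglia, with a median of 263 in the other MDM libraries and 165 in the other microglia (-5.80 ± 1.11, adjusted p = 0.0054). Lox (-6.34 ± 1.39, adjusted p = 0.011) and Serping1, the C1 inhibitor (-6.88 ± 1.94, adjusted p = 0.044), were further negative ones.

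Against type 2 transplanted tumours, with the same model and the other tumour type, Tnfrsf25, a death-domain receptor of T cells, had the difference 9.02 ± 0.76 in type 1 transplanted tumours, beside 1.40 in type 2 transplanted ones (interaction 7.62 ± 1.19, adjusted p = 0.0074). Cd163l1, a scavenger receptor known from gamma delta T cells, stood at 679, 193, 229 and 174 normalised counts in type 1 transplanted MDM and had no reads in microglia (at least 96.8-fold higher, adjusted p = 8.2e-07), beside a difference of 0.00 in type 2 transplanted tumours (interaction 8.08 ± 1.28, adjusted p = 0.0074). Tmem51 ran the other way, with a difference of -0.04 ± 0.66 (adjusted p = 0.97), overlapping groups at 4235, 2023, 3643 and 5681 in MDM, against 3789, 5659 and 2479 in microglia, and a difference of 4.98 in type 2 transplanted tumours (interaction -5.02 ± 1.02, adjusted p = 0.03). Its sign here turned to 0.04 with quantile normalization and to 0.52 after rescaling to the same total. All 3 were among the 12 named by size in that interaction. The 129 calls of this interaction became 47, 45, 28 and 38 without MDM replicate 2, MDM replicate 3, microglia replicate 1 and microglia replicate 2, each left out alone, and 0 genes, these 3 included, were called without both microglia libraries.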

How the data were processed

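RNA was measured in bulk sorted cells. Per the labels' protocols, RNA was taken up in TRIzol and cleaned with miRNeasy Micro columns, and libraries were made with SMART-Seq v4. The submitters' processing notes name STAR 2.7.8a, DESeq2 and the mm10 build. The counter, annotation and use of strand are not given in the sources used here. The deposited table of 30749 genes in 21 libraries holds log2-like values that the authors normalised with a variance-stabilising transformation, as its values show, with a floor of 4.22. The design had allowed for normalised counts. Inverting the transformation gave whole reads for 100% of values within a tolerance of 1e-06, hence size factors and library totals. The limma 3.58.1 fit in R 4.3.3 used log2(normalised count + 1) for 17216 genes with at least 10 normalised counts in at least 3 libraries, over all 8 groups of tumour class and cell type, with 13 residual degrees of freedom and no covariate, and calls had a Benjamini-Hochberg adjusted p under 0.05. The fit was tested on simulated data. A gene with no reads in a group was set against 3 reads per library, a floor that covers counting error only.

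The members and gene lists were chosen with earlier results of these data known. Named genes were the 4 lineage markers, the 12 largest rises and falls, up to 4 members of each list with the smallest p plus members called against their list's direction, the 6 largest interactions each way and a short set of macrophage and defining cell type genes. Replicate numbers come from the sample descriptions. Alternatives changed the pseudocount, filter, scaling, weights, replicate block and the libraries used. The normal brain microglia and 5 antigen receptor genes were not analysed here. Some genes that the rule names are not reported here. Python 3.11.15, pandas 2.3.3, numpy 2.4.6 and matplotlib 3.10.9 made summaries and plots.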

Additional observations from a re-analysis of the deposited data

Results flagged for a closer look

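In 31 of 227 named genes, 1 of the 4 MDM libraries of type 1 transplanted tumours stood apart from the other 3, with a gap over the group's range above Dixon's critical value for 4 samples. For normally distributed values chance gives this in about 1 group in 20, a rate that need not hold for counts with many zeros. Where the other 3 libraries held no reads, as for Ct55, Esam, Fkbp14, Olfm4 and Syt1, the ratio was 1.0 by construction. MDM replicate 1 held the high normalised count, given in brackets, for Batf3 (515), Cd163l1 (679), Ct55 (1.6), H2-M3 (5867), Hbb-bs (2758), Hbb-bt (106), Mitf (126), Mmp9 (2139), Mt2 (43.2), Mymk (8.8), Olfml2b (37.6), Retnlg (5218), S100a8 (96), S100a9 (241), Siglecf (1031) and Syt1 (6.4). This set holds the neutrophil calprotectin genes S100a8 and S100a9, the haemoglobin genes Hbb-bs and Hbb-bt, and the granule protease gene Mmp9. MDM replicate 2 was high for Esam (1.75), H2-Ab1 (179188), Lox (27.9) and Tcf4 (2394) and low for Il18 (135) and Lpcat3 (2309). MDM replicate 3 was high for Olfm4 (3.87) and low for P2ry10 (1934). MDM replicate 4 was high for Cd209a (5188), Eya4 (16), F13a1 (1137), Fkbp14 (5.81) and Sox2 (29.8), and low for Nt5e (1966) and Slc1a3 (44.3). Their cause was not tested.

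The difference between MDM and microglia in type 1 transplanted tumours differed from the mean of the other 3 classes for 989 genes, from type 2 transplanted tumours for 129 and from type 1 spontaneous tumours for 777, each by limma's interaction test. Among the called genes that the ranking of named genes kept, the largest positive interactions against the mean of the others were Ggt1 (7.50), Ncmap (7.46), Scn4a (7.44), Dntt (7.31), Flicr (7.19) and Cxcr5 (7.04). The largest negative ones were Serping1 (-6.88), Lox (-6.34), Ccl24 (-5.80), Olfm4 (-5.36), Fkbp14 (-5.26) and Ct55 (-5.18). Values are log2.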

How the results depend on the processing

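The 4 lineage markers kept direction and call in all 18 alternatives, with ranges of 5.59 to 6.49 for Ccr2, 5.54 to 7.10 for Itga4, -8.35 to -7.40 for P2ry12 and -7.28 to -6.49 for Tmem119. Of 227 named genes 206 were called, of which 168 kept their call in every alternative and 38 lost it in at least 1. The 5867 calls became 4905 to 5342 when 1 library was left out and 3187 without microglia replicates 1 and 2, 3095 of them shared in the same direction. Against the other 3 classes, 989 calls became 1777 with array weights, 582 to 941 when 1 library was left out and 62 without microglia replicates 1 and 2. Against type 2 transplanted tumours, 129 calls became 256 with array weights, 237 on the deposited values, 230 with a pseudocount of 8, 63 with voom on the recovered reads, which called 6034 genes in the main comparison, 28 to 186 when 1 library was left out and 0 without microglia replicates 1 and 2. Against type 1 spontaneous tumours, 777 calls became 470 to 712 when 1 library was left out and 93 without microglia replicates 1 and 2. The fit of the 7 libraries alone gives no interaction. The cause of these moves was not tested.

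Directions turned for B2m (0.26) with quantile normalization, and for H2-Ab1 (1.43, 0.32 and 0.25), Lyz2 (1.30, 0.38 and 0.28) and Tmem51 (0.04, 0.52 and 0.56) with quantile normalization, after rescaling to the same total and without microglia replicates 1 and 2. Without both those libraries they turned also for Cd274 (-0.32), Mki67 (-0.68) and Syt1 (0.72). Leaving out 1 library gave ranges that cross 0 for Hba-a2 (-0.21 to 2.72), Hbb-bs (-0.20 to 3.23), Hbb-bt (-0.05 to 2.89), Lyz2 (-0.52 to 0.22), Mki67 (-0.11 to 0.69) and Tmem51 (-0.34 to 0.25). Of these genes only B2m was called.

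Same-numbered MDM and microglia libraries correlated at 0.07, 0.08 and 0.05 in their deviations from group means, and differently numbered ones at -0.05 to 0.04. The main fit did not use the numbers as pairing. Each of the 3 microglia libraries correlated best with the MDM library of its number. All 3 same-numbered pairs were also alike in the sex-linked transcripts Xist and Ddx3y, for which differently numbered pairs were not compared. The labels do not say whether same-numbered libraries shared a tumour. A replicate block gave 5656 calls in the main comparison and 377, 1 and 158 in the 3 interactions, on 4 residual degrees of freedom. With 4 MDM and 3 microglia libraries, small differences and genes near the floor of 3 reads were not detectable.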
